A study of Mus musculus with 12 samples.

Results

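The 8 genes described here carry the glycine signalling apparatus of inhibitory synapses: the glycine receptor subunits Glra1, Glra2, Glra3, Glra4 and Glrb, the glycine transporters Slc6a5 and Slc6a9, and the scaffold gene Gphn. Members were the main probesets carrying one of these gene symbols, which gave 129 of the 221417 main probesets with a symbol, for 8 of 17550 genes. A relative SD above 0.4 in either genotype removed 7 of them, so 122 of 205469 probesets were analysed, and every member kept at least 6. The choice used no measured value, but glycine receptor genes were among those the study had picked from these arrays, so their direction here is no independent evidence.

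Whole brains were taken at birth from 6 litters, and each litter gave a wildtype female (KIS +/+) and a KIS-ko female (KIS -/-), so each genotype had 6 arrays. KIS is a brain-enriched protein kinase encoded by Uhmk1, and the knock-out is constitutive, so every cell type and both the neurons that release glycine and those that receive it lack the kinase. The mice had been backcrossed to a C57BL6/N background. The question was whether transcript levels in the neonate brain differ between KIS-ko animals and their wildtype littermates. RNA from each brain was hybridized to an Affymetrix exon array, on which a probeset measures a stretch of an exon, and the signal is on a linear scale.

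Glycine receptors are pentameric chloride channels, in which alpha subunits combine with the beta subunit encoded by Glrb. The beta subunit binds gephyrin, which holds the receptors opposite the nerve ending. Glycine is the main fast inhibitory transmitter of the spinal cord and brainstem. Around birth alpha2 gives way to alpha1 as the main alpha subunit there, and inherited loss of alpha1, beta or the neuronal transporter causes exaggerated startle.

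The study designed Q-PCR primers for Glrb and Glra3, and they are shown because these are the members with the lowest p-values below. Values measured with them were not analysed here. The forward primer of each mRNA pair spans an exon junction, and glra3_f2 lies in an intron and so reads unspliced RNA.
Glrb_f1: cgtccttgtgagcatgaggttgtc
Glrb_r1: ggatctcctgactgccagatgaatctta
Glra3_f1: gccgcactgttactgagtttggtg
Glra3_r1: ttgcatcataccccgatgtcctc
glra3_f2: tgcattaagcagtgtttggcctctc

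The promoters of the same genes are shown as RefSeq gives them on GRCm38.p6, from 250 bases before the start of the gene to 50 bases after it, along the gene's strand. Capitals mark the letters GGGCGG or their reverse complement CCGCCC, the core of the GC box bound by Sp factors.
Glra3, chr8:55940168-55940467, plus strand: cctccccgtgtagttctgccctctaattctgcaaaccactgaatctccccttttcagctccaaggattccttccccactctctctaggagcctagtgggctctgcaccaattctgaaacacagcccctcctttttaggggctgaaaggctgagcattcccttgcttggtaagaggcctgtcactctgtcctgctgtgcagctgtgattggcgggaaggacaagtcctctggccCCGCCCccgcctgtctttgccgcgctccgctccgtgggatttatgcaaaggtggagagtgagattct
Glrb, chr3:80913611-80913910, minus strand: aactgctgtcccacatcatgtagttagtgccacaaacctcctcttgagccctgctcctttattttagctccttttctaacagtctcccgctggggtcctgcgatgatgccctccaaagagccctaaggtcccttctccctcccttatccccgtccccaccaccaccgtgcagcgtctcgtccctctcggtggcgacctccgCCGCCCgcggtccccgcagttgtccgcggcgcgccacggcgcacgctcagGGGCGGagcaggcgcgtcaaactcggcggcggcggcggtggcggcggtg
The Glrb window holds 30 CpG and has a GC content of 65.7%, and the Glra3 window holds 8 CpG at 56%. The median of 32851 promoters of this length was 7 CpG and 52.7% GC. The GC-box letters occur 2 times in the Glrb window, and 35.7% of all promoters hold them on either strand. The table held 10 windows for 7 members. Glra2, Gphn and a window of Slc6a9 also hold these letters, and the windows of Glra4 and Slc6a5 do not. The letters TATAAA, searched on both strands, are in the Glra2 window alone among the members and in 13.6% of all promoters. A match describes the letters in a window and no bound factor.

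Gene values are the mean over a gene's kept probesets of log2(signal + 16). They serve to compare arrays for the same gene, since probes differ in efficiency, so the members were not ranked against each other. Each probeset was instead set beside 5222 intron control probesets, whose median signal was 114 and whose 95th percentile was 713. All 19 kept probesets of Slc6a9, 11 of 12 of Glra2, 12 of 14 of Glrb and 24 of 28 of Gphn had a mean signal above that percentile. Slc6a5, which encodes the transporter of glycinergic nerve endings, passed it with 14 of 24. None of the 8 probesets of Glra1, the 11 of Glra3 or the 6 of Glra4 passed it, although all 8 of Glra1, 9 of Glra3 and 4 of Glra4 were above the intron controls' median. For these 3 genes a difference rests on signals that many intron controls also reach.

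Uhmk1 checked the labels: its gene value ran from 10.9 to 11.1 in wildtype and from 8.62 to 8.98 in KIS-ko brains, a difference of -2.11 (SE 0.0681, limma adjusted p = 2.91e-07), lower in 6 of 6 litters. Uhmk1 lies on chromosome 1, and no member does. The brain label was checked with marker lists: 7 of 7 measured neuron genes and 8 of 8 telencephalon genes had a probeset above the intron controls' 95th percentile. Of 14 measured Hox genes, which mark hindbrain and spinal cord, where most glycinergic neurons lie, 7 did. Over all genes 11425 of 17279 did, so the Hox count alone does not show caudal tissue. The other lists are short. The arrays shared a general shift. The median gene differed by -0.036 between the genotypes, and 69.8% of 17279 genes had the lower value in the KIS-ko group. By litter the shift ran from -0.11 in litter 6 to 0.071 in litter 4. Differences are therefore also given relative to the median gene of the pair.

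The clearest difference among the members was at Glra3, the alpha3 subunit, known for its part in glycinergic transmission of the dorsal horn. Its gene values in wildtype brains of litters 1 to 6 were 8.12, 8.11, 7.90, 7.95, 7.79 and 8.20. In the KIS-ko littermates they were 7.63, 7.73, 7.71, 7.97, 7.72 and 7.56. KIS-ko brains were lower in 5 of 6 litters, with the widest gaps in litters 6, 1 and 2, and the ranges overlapped through the litter 4 KIS-ko brain alone. The difference was -0.29 (SE 0.0845, 95% interval -0.48 to -0.11), a fold of 0.816 (0.717 to 0.929) on the log2(signal + 16) scale, which understates change at low signal. None of its kept probesets had a mean signal above the intron controls' 95th percentile. In limma with the litter as a block the unadjusted p was 0.00576 and the adjusted p over all genes 0.685, so Glra3 did not pass. The 750 genes that were lower at an unadjusted p under 0.05 make 4.34% of those tested. Relative to the median gene of the pair the difference was -0.26 ± 0.21 (SD, n = 6 litters), lower in 6 of 6 litters, with an exact two-sided sign-flip permutation p of 0.03125, the smallest that 6 pairs can give. Without that correction the exact sign-flip p was 0.0625. These are 2 of 16 unadjusted sign-flip tests, 8 members on 2 scales. In a whole brain, fewer cells that express a gene and less of its RNA per cell cannot be told apart.

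The lower signal was spread over the Glra3 transcript. All 11 kept probesets were lower, by -0.11 to -0.64, and 7 of them had an unadjusted p under 0.05 in the fit across 205469 probesets, with a lowest adjusted p of 0.714. These 7 were the only ones at that level among the 122 of all members, and 4.72% of all probesets were lower at that level. Probesets of a gene read the same RNA and are not independent. The probeset second from the 5' end had signals of 396 to 537 in wildtype and 326 to 403 in KIS-ko brains and was lower in 6 of 6 litters. The third, for which the table allows cross-hybridization, was lower in 2 of 6 litters, with a difference of -0.11 (SE 0.112). The sixth had signals of 125 to 167 in wildtype and 51.9 to 152 in KIS-ko brains, around the level of the intron controls. It was also lower against the other Glra3 probesets, by -0.38 (SE 0.115), with an unadjusted limma p of 0.00965 and an adjusted p of 0.754. Without litter 4 the member probesets at an unadjusted p under 0.05 numbered 20 of 122, beside 16.1% of all probesets. Without litter 6 they numbered 4, beside 3.85% of all.

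Glrb, the subunit that every synaptic receptor needs, showed a smaller difference on bright probesets. Wildtype values for litters 1 to 6 were 10.46, 10.45, 10.34, 10.27, 10.21 and 10.59, and KIS-ko values 10.30, 10.26, 10.34, 10.39, 10.03 and 10.21. Litter 6 had the widest gap, litter 3 almost none, and litter 4 went the other way. The difference was -0.13 (SE 0.0644, 95% interval -0.28 to 0.01), with an unadjusted limma p of 0.0654 and an adjusted p of 0.685. Relative to the median gene it was -0.096 ± 0.11 (SD, n = 6 litters), and the exact sign-flip p was 0.09375. All 14 kept probesets were lower, from -0.057 to -0.30. The difference was -0.18 without litter 4 (limma adjusted p = 0.151), -0.085 without litter 6 and -0.077 on centred arrays.

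**Figure D1:**
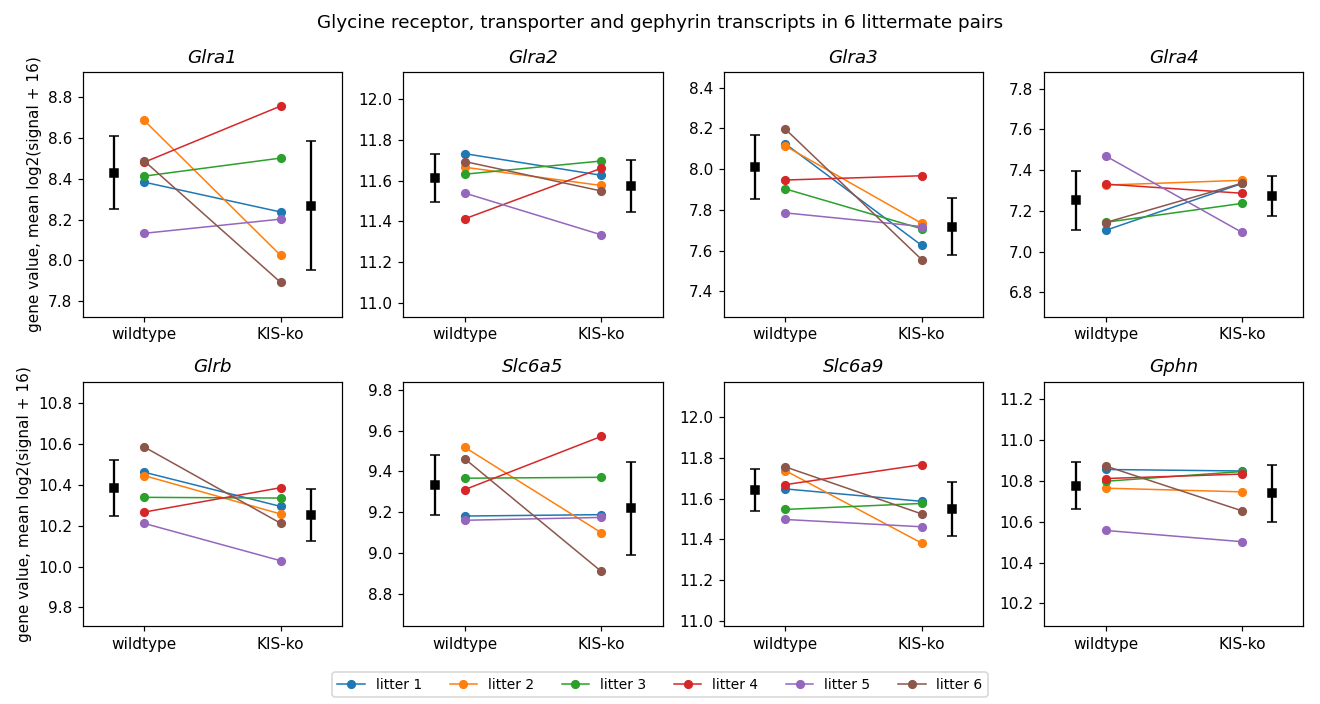
Gene values (vertical axis, mean log2(signal + 16), each panel spanning the same range) of the 8 genes in wildtype and KIS-ko brains. Lines join littermates, colours mark the litter, and squares with bars give the mean and SD of 6 arrays. Glra3 lines descend in 5 of 6 litters, and in no gene do the genotypes separate.

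Glra2, the alpha subunit of the fetal and newborn receptor, had a small difference whose size depended on single litters. Its values ran from 11.4 to 11.7 with a median of 11.65 in wildtype brains, and from 11.3 to 11.7 with a median of 11.60 in KIS-ko brains. The difference was -0.039 (SE 0.0635, 95% interval -0.18 to 0.10, limma adjusted p = 0.821), close to that of the median gene, and it turned to 0.017 when arrays were centred on their medians. It was -0.096 without litter 4 and -0.0055 without litter 5. The table marks 6 of its 12 probesets as matching 1 place, and 11 of the 12 were lower, by at most -0.087.

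Glra1, the main adult alpha subunit, differed mostly within 2 litters. Wildtype values for litters 1 to 6 were 8.38, 8.69, 8.41, 8.48, 8.13 and 8.49, and KIS-ko values 8.24, 8.02, 8.50, 8.76, 8.20 and 7.89. KIS-ko brains of litters 2 and 6 held the lowest values of all 12 arrays, that of litter 4 the highest, and 3 of 6 litters were lower. The difference was -0.16 (SE 0.118, 95% interval -0.42 to 0.10, limma adjusted p = 0.690), and all 8 probesets were lower on average. It was -0.062 without litter 2, -0.075 without litter 6 and -0.25 without litter 4. On centred arrays it was -0.11. Glra4, a subunit whose human counterpart is held to be a pseudogene, had dim probesets and no stable direction. It differed by 0.020 (SE 0.0754, limma adjusted p = 0.926), with 3 of 6 probesets on each side of 0. Without the relative SD filter the difference was -0.073.

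Slc6a5 encodes GlyT2, which refills glycinergic nerve endings and marks those neurons. Its wildtype values for litters 1 to 6 were 9.18, 9.52, 9.37, 9.31, 9.16 and 9.46, and its KIS-ko values 9.19, 9.10, 9.37, 9.57, 9.17 and 8.91. Litters 1, 3 and 5 were nearly equal, litters 2 and 6 were lower in KIS-ko brains by -0.42 and -0.55, and litter 4 was higher by 0.26. The mean difference of -0.11 (SE 0.0970, 95% interval -0.33 to 0.10, limma adjusted p = 0.707) reflected 2 lower litters and 1 higher litter. It was -0.026 without litter 6, -0.053 without litter 2 and -0.19 without litter 4. On centred arrays it was -0.058, and with a relative SD limit of 0.2 it was -0.038. Of 24 probesets 21 were lower. Those ranked 19 and 25 from the 5' end, among 25 with the rejected probeset counted, sat above the rest of the gene by 0.16 and 0.20, with unadjusted limma p-values of 0.0248 and 0.0329 and adjusted p-values of 0.795 and 0.809.

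Slc6a9 encodes GlyT1, the transporter of glia that clears glycine from the cleft. Its values ran from 11.5 to 11.8 in wildtype brains, median 11.66, and from 11.4 to 11.8 in KIS-ko brains, median 11.55. The difference was -0.093 (SE 0.0642, 95% interval -0.24 to 0.05, limma adjusted p = 0.687), lower in 4 of 6 litters, again most in litters 2 and 6, by -0.36 and -0.23. All 19 probesets were lower, from -0.013 to -0.15, and without litter 2 the gene's difference was -0.040. On centred arrays it was -0.037.

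Gphn encodes gephyrin, which clusters glycine and GABA-A receptors and also makes the molybdenum cofactor. Its values ran from 10.6 to 10.9 in wildtype brains, median 10.81, and from 10.5 to 10.8 in KIS-ko brains, median 10.79. Litter 5 was low in both genotypes. The difference was -0.038 (SE 0.0503, 95% interval -0.15 to 0.07, limma adjusted p = 0.779), and it became 0.017 on centred arrays. Litter 6 held the widest gap, -0.22, and without it the difference was -0.0022. Of 28 probesets 21 were lower. The twelfth from the 5' end had the highest difference, with a mean signal of 613 in wildtype and 699 in KIS-ko brains and a difference of 0.19 (SE 0.107). It was higher in 5 of 6 litters, and its adjusted p against the rest of the gene was 0.826.

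**Figure D2:**
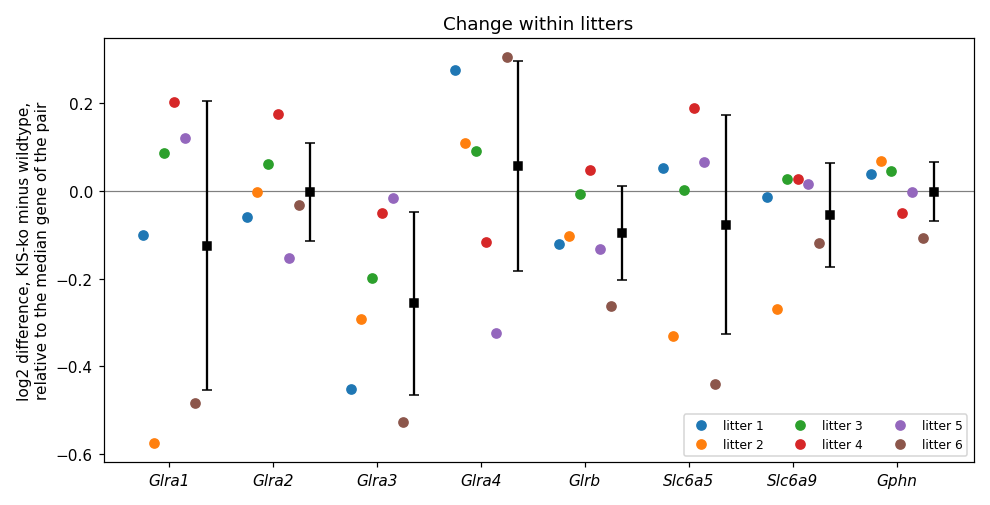
Log2 difference of each gene value, KIS-ko minus wildtype, relative to the median gene of the pair. Circles are litters, and squares with bars give the mean and SD of 6 litters. Glra3 lies below 0 in 6 of 6 litters (-0.015 to -0.53), while Glra1 and Slc6a5 have litters 2 and 6 at the low end and litter 4 at the high end.

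Counted together, 7 of 8 members were lower in KIS-ko brains, beside 69.8% of all genes, and the members' median difference was -0.10 against -0.036 for all genes. Centring the arrays left 5 of 8 lower, where 37.7% of all genes were. The 2 genes lower in at least 5 of 6 litters were Glra3 and Glrb, beside 22.5% of all genes. Glra3 was the 1 member at an unadjusted p under 0.05. No member passed the adjusted threshold, which 0.00579% of genes did, and that was Uhmk1 alone. No member had genotypes that did not overlap, as 0.208% of genes did. Of the 122 probesets 108 were lower, beside 66.2% of all, and on centred arrays 86 were, beside 43.4% of all. None of them passed the adjusted threshold (0.00487% of all). Against the rest of their gene, 3 of 122 differed at an unadjusted p under 0.05, beside 6.09% of all, and none after adjustment (0.000985%).

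**Figure D3:**
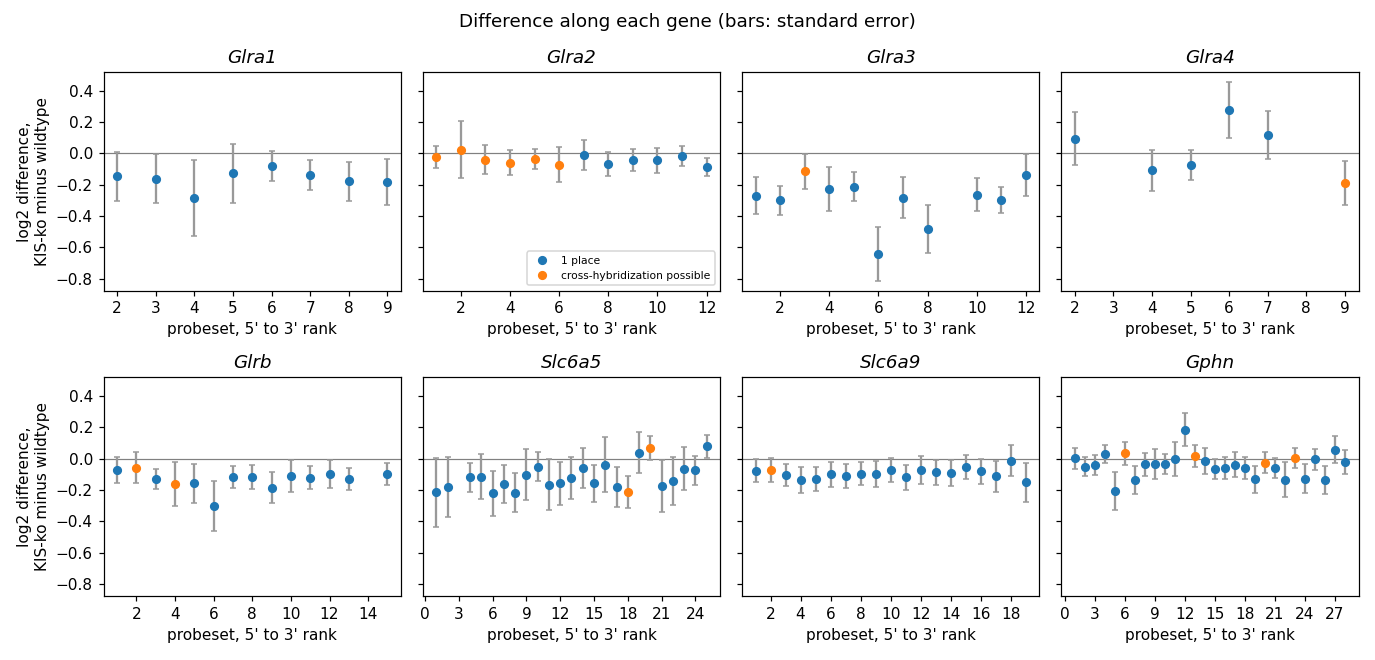
Log2 difference, KIS-ko minus wildtype, of each kept probeset, in order from the 5' to the 3' end of its gene. Bars are standard errors, and orange marks probesets for which the table allows cross-hybridization. All points of Glra1, Glra3, Glrb and Slc6a9 lie below 0, and those of Glra4 scatter on both sides.

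Whether members changed unequally was tested within arrays for 4 pairs. Glra3 minus Glra2 was lower in KIS-ko brains by -0.25 ± 0.22 (SD, n = 6 litters), in 5 of 6 litters, with an exact sign-flip p of 0.0625 and 0.1875 after adjustment over the 4. Glrb minus Gphn, receptor against scaffold, was lower by -0.094 ± 0.10 in 5 of 6 litters, with an exact p of 0.09375 and the same adjusted value of 0.1875. Glra1 minus Glra2, the adult against the fetal subunit, was -0.12 ± 0.32 (exact p = 0.40625, adjusted 0.542). It ran from -0.033 without litter 2, through -0.057 without litter 6, to -0.20 without litter 5. With a relative SD limit of 0.2 it was -0.064 (exact p = 0.03125, adjusted 0.125). That limit left Glra1 only its probesets ranked 6 and 7 from the 5' end. It selects probesets by their spread within genotypes, so this p-value is no further support. Neuronal minus glial transporter, Slc6a5 minus Slc6a9, was -0.021 ± 0.17 (exact p = 0.8125, adjusted 0.8125), and it turned to 0.055 with that limit and to 0.039 without litter 6. The limit also brought Glra3 minus Glra2 to -0.16. With 6 litters and 4 pairs, a pair that alone stood out could reach an adjusted p of 0.125 at best, so these tests could not have passed a lone pair and say nothing on whether members changed alike.

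By litter, 6, 7, 2, 1, 6 and 7 of the 8 members were lower in KIS-ko brains of litters 1 to 6. These counts ran along with the shift of the median gene, which was -0.046, -0.086, 0.0023, 0.071, -0.052 and -0.11. Relative to it, the counts were 5, 6, 2, 3, 5 and 7.

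The members did not vary alike across the 12 arrays. After each array was centred on its median, Pearson r over the arrays was computed between each member and 14704 genes with at least 4 probesets. These correlations are descriptions: the arrays share litters and 2 genotypes, and the r of a nearest gene is the highest of 14704. The gene most like Glra1 was Slc6a5 (r = 0.92), a receptor subunit and the marker of the neurons that release its ligand, followed by the uncharacterized 6330527O06Rik (r = 0.88). For Slc6a5 the order was 6330527O06Rik (r = 0.94) and then Glra1. Glra3 lay closest to Zfp59 (r = 0.92) and Mpp5 (r = 0.90), a cell polarity gene, and Glrb to Ublcp1 (r = 0.94) and Chm (r = 0.94). The genes nearest to Glra2 were Fstl5 (r = 0.95) and Anp32b (r = 0.94). Those nearest to Gphn were Dlg2 (r = 0.95), a synaptic scaffold gene, and Ralyl (r = 0.95). Slc6a9 followed Paqr8 (r = 0.95) and Rftn2 (r = 0.89), and the dim Glra4 followed Mycbpap (r = 0.92) and Cyp7a1 (r = 0.91). Over the 28 pairs of members r ran from -0.55 (Glra3 and Glra4) to 0.92 (Glra1 and Slc6a5), followed by 0.68 for Glra1 and Slc6a9. With Glrb, r was 0.55 for Glra2, 0.55 for Glra3, 0.48 for Gphn and 0.28 for Glra1.

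**Figure D4:**
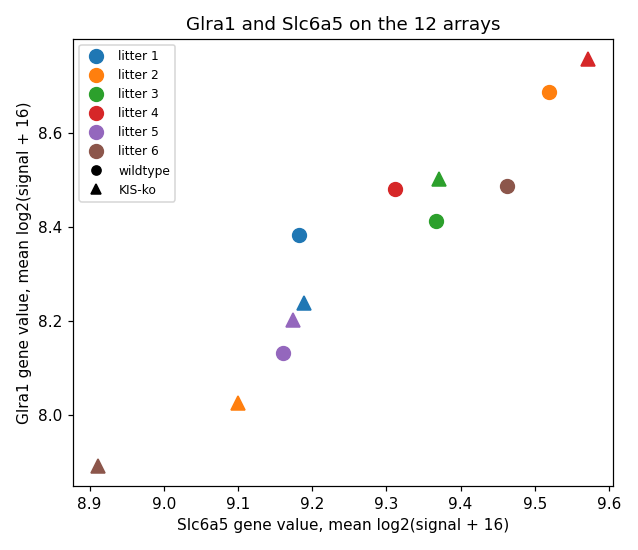
Gene values of Slc6a5 (horizontal axis) and Glra1 (vertical axis), both mean log2(signal + 16), on the 12 arrays. Circles are wildtype and triangles KIS-ko brains, coloured by litter. KIS-ko brains of litters 2 and 6 stand at the low end and that of litter 4 at the high end.

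Marker genes of caudal tissue differed among themselves in the litters that set this pair apart. The mean difference of the Hox list was -0.024 in litter 2, -0.056 in litter 6 and -0.011 in litter 4. Hoxa2 and Hoxb2, the most rostral of the Hox list and picked here after their values were seen, differed by -0.43 and -0.31 in litter 2, by -0.71 and -0.71 in litter 6, and by 0.27 and 0.15 in litter 4. Other Hox genes went the opposite way: Hoxc5 and Hoxa5 differed by 0.76 and 0.35 in litter 2, Hoxb8 and Hoxc4 by 0.72 and 0.49 in litter 6, and Hoxb6 by -0.21 in litter 4. In litters 1 and 5 Hoxa2 parted from Slc6a5, at -0.34 and 0.40 where Slc6a5 was at 0.0068 and 0.014. Over the whole list 9 of 14 measured genes were lower and 5 higher, with a median of -0.027, which became 0.028 with 5 of 14 lower on centred arrays. Among all genes 69.8% were lower, and 37.7% on centred arrays. The list's summed linear level ran from 5198 to 6611 in wildtype and from 5157 to 6652 in KIS-ko brains. At an unadjusted limma p under 0.05, Hoxb4 was lower by -0.20 (SE 0.0725), and Hoxb8, Hoxa5, Hoxc4 and Hoxc5 were higher by 0.31, 0.22, 0.19 and 0.25. Each of these had an adjusted p of 0.685, and without the litter block Hoxa5 and Hoxc5 were no longer at that level. Hoxb8, Hoxa5, Hoxc4 and Hoxc5 rest on 2, 1, 3 and 1 kept probesets, and Hoxa2, Hoxb2 and Hoxb6 on 4, 2 and 5. The wildtype mean of Hoxc5, 6.48, was the lowest of the measured Hox genes. Of 8 caudal inhibitory neuron factors, which specify glycinergic and GABAergic cells, 6 were lower, with a median of -0.038 (0.017 and 3 lower on centred arrays) and summed levels of 3099 to 3550 and 2907 to 3694. Their mean difference was -0.22 in litter 2 and 0.14 in litter 4, of the same sign as Slc6a5, but -0.0089 in litter 6. The lowest p-values there were those of Gata3 (-0.077, SE 0.0617) and Ptf1a (0.075, SE 0.0604). The part of tissue composition in the Glra1 and Slc6a5 values was not tested.

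Of all genes, 69.8% were lower, and 37.7% were on centred arrays, where the median gene stood at 0.020. All 7 astrocyte and radial glia genes were lower (5 on centred arrays), with a median of -0.086. Their summed levels were 20584 to 23588 in wildtype and 19411 to 22142 in KIS-ko brains. Gfap, the glial filament gene, differed by -0.27 (SE 0.0812), at an unadjusted limma p under 0.05 and an adjusted p of 0.685, and Slc1a3, a glial glutamate transporter, by -0.091 (SE 0.0545). These values stand beside the glial transporter Slc6a9 at -0.093, and their part in it was not tested. Of 7 neuron genes 5 were lower, with a median of -0.026 that turned positive on centred arrays for the 6 compared there, and Syt1 (-0.075, SE 0.0459) and Stmn2 (-0.055, SE 0.0526) had the lowest p. Both GABA synthesis genes were lower (1 of them on centred arrays), Gad1 by -0.070 (SE 0.0459) and Gad2 by -0.053 (SE 0.0489). Telencephalon genes were higher in 7 of 8, with a median of 0.037 (8 of 8 and 0.093 on centred arrays), led by Lhx2 (0.069, SE 0.0459) and Dlx2 (0.047, SE 0.0560). Choroid plexus genes were lower in 3 of 4 (1 on centred arrays), with Kl at -0.10 (SE 0.0614) and Folr1 at 0.061 (SE 0.0620). Of 3 erythroid genes 1 was lower (0 on centred arrays), with Hba-a1 at 0.044 (SE 0.0493) and Alas2 at -0.054 (SE 0.0608).

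The rest of the glycine pathway gave small differences as well, and 1 gene of these lists, Suox, had an unadjusted limma p under 0.05. Over all genes 1065 of 17279 were at that level. Without the litter block Slc12a2 was at that level in place of Suox. The counts of lower genes below stand beside 69.8% of all genes, and 37.7% on centred arrays. All 5 other carriers of glycine and chloride were lower (4 on centred arrays), with a median of -0.097. Slc12a2, the chloride importer of immature neurons, differed by -0.13 (SE 0.0600), and Slc38a5, an amino acid carrier that moves glycine, by -0.097 (SE 0.0625). Slc32a1, which loads glycine and GABA into synaptic vesicles and was named for that role, was at -0.097 (SE 0.0631). All 7 measured genes of glycine synthesis and cleavage were lower (5 on centred arrays), with a median of -0.084. The cleavage genes Dld and Gldc had the lowest p, at -0.11 (SE 0.0645) and -0.084 (SE 0.0524). Among 10 measured partners of gephyrin and the inhibitory postsynapse 8 were lower (2 on centred arrays), with a median of -0.025, above that of all genes. The actin-binding Pfn2 differed by -0.098 (SE 0.0591), and Vasp, a regulator of actin filaments, by 0.066 (SE 0.0494). Of the molybdenum cofactor pathway, which gephyrin serves, 2 genes were measured. Suox, the cofactor-dependent sulfite oxidase, differed by -0.19 (SE 0.0793, adjusted p = 0.685), and Mocs2 by -0.036 (SE 0.0620). No gene of these lists passed the adjusted threshold. Relative to the median gene of the pair, the means over litters were 0.016 ± 0.030 for the gephyrin partners, -0.056 ± 0.072 for the carriers, -0.040 ± 0.090 for synthesis and cleavage and -0.074 ± 0.12 for the cofactor genes (SD, n = 6 litters).

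**Figure D5:**
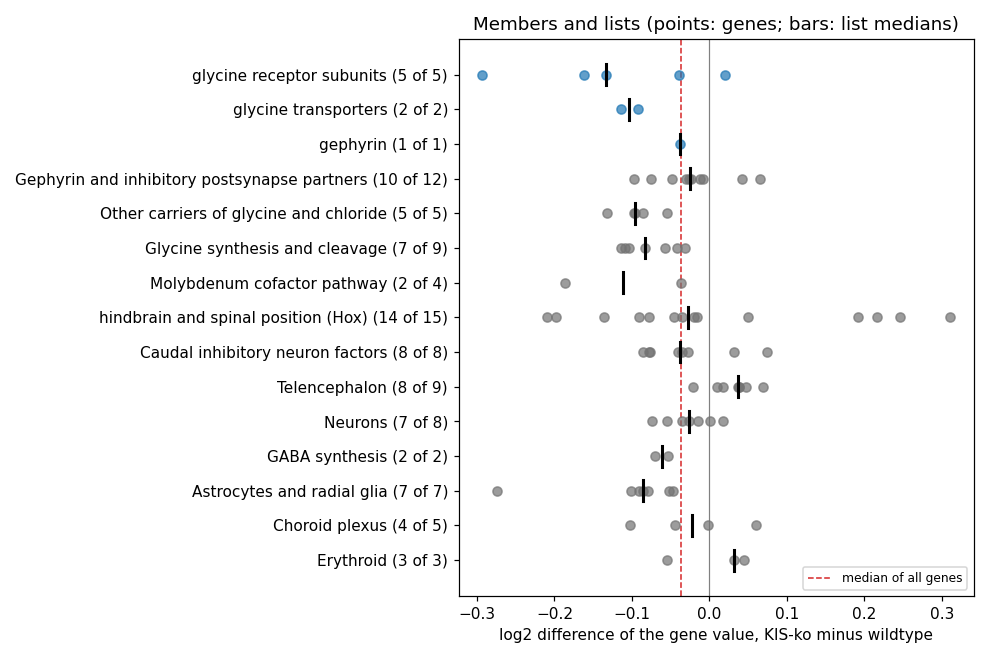
Log2 difference of the gene value, KIS-ko minus wildtype, for the members (blue) and for genes of the pathway and marker lists (grey). Brackets give the measured of the listed genes, black bars are list medians, and the dashed line is the median of all genes (-0.036). Glra3 lies at the low end of the receptor subunits, and gephyrin lies on the dashed line.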

How the data were processed

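Total RNA from whole brains of 6 wildtype and 6 KIS-ko newborn females, 1 pair per litter, was hybridized to Affymetrix exon arrays. The authors used Affymetrix Expression Console, with quantile normalization at the exon level and PLIER, and deposited linear intensity values per probeset. Which build the deposited positions refer to is not given in the sources used here, so none are printed. Depth has no counterpart on arrays, and the number of arrays limits the precision.

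Of 229581 probesets, 221417 main probesets with a symbol were taken, and 15948 with a relative SD above 0.4 in either genotype were rejected, as in the study's methods. Gene values were means of log2(signal + 16). Genotypes were compared with limma 3.58.1 (R 4.3.3), litter as a block, with Benjamini-Hochberg adjustment over 17279 genes or 205469 probesets at 0.05. The fits were tried on simulated data, with changes larger than any member showed and no shift shared by an array. Their performance at smaller changes was not tested. Single values used exact two-sided sign-flip tests over litters (scipy 1.17.1). No arrays were identical, and their correlations ran from 0.977 to 0.990.

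The pairing comes from the labels, which give the litter. Deviations from the genotype means correlated between littermates by -0.11 to 0.47. Between wildtype and KIS-ko arrays of different litters they correlated by -0.43 to 0.28, and by -0.02 on average. Littermates of litters 2, 4 and 6 correlated negatively, so these values do not by themselves show the pairing.

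Members and lists were chosen with earlier results of these data known. Every member is named, as are list genes at an unadjusted p under 0.05, the 2 with the lowest p in a list with fewer than 2 such genes, at most 4 a list, and the 2 genes most correlated with each member. Hoxa2, Hoxb2, Hoxb6, Hoxc5 and Slc32a1 were named beyond that rule. Alternatives covered the block, pseudocount, filters, scaling, summary and single litters.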

Additional observations from a re-analysis of the deposited data

Results flagged for a closer look

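Of 16 groups of 6 values (8 members in 2 genotypes), 1 held a sample that stood apart by Dixon's test, which chance gives in about 1 in 20 groups. The Gphn value of the wildtype brain of litter 5 was 10.56, against a group median of 10.81. Its gap to the next sample was 0.656 of the group's range, above the critical 0.625. The KIS-ko littermate was also the lowest of its genotype.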

How the results depend on the processing

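No member passed the adjusted threshold under any alternative. Glra3 stayed between -0.36 and -0.21 in the 18 alternatives that gave a value, with an unadjusted p under 0.05 in all 17 with a test and adjusted p from 0.125 to 1.00. Glra2 and Gphn changed sign with arrays centred on their medians, to 0.0171 and 0.0173. Glra4 did so without the relative SD filter (-0.0733), with a limit of 0.2 (-0.0749), without litter 1 (-0.0221) and without litter 6 (-0.0148), and leaving out a litter gave -0.0221 to 0.0988. Slc6a5 minus Slc6a9 did so with the limit of 0.2 (0.0548) and without litter 6, and leaving out a litter gave -0.0582 to 0.0385. The other differences of Glra1, Glra3, Glrb, Slc6a5 and Slc6a9 kept their sign in every alternative that gave a value. Leaving out dim probesets gave no value for Glra1, Glra3 and Glra4, since none of theirs were left.

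Members at an unadjusted p under 0.05 numbered 1, but 0 with dim probesets left out and 2 with the limit of 0.2, with trend and robust moderation, or with probesets matching 1 place; leaving out a litter gave 1 to 2. The other member was Glra1 with the limit of 0.2, on its probesets ranked 6 and 7 from the 5' end alone, and Glrb in the rest. All genes at that level numbered 1065, 644 with dim probesets left out, and 550 to 3913 on leaving out a litter, highest without litter 4. Of the 1065, 70.4% were lower; of 1099 on centred arrays 26.9% were, and of 1219 on arrays quantile-normalized again 35.3%, with the median gene at 0.020 and 0.0021. Genes past the adjusted threshold numbered 1, 2 with a pseudocount of 64, no relative SD filter or trend and robust moderation, 5 with the limit of 0.2 or dim probesets left out, and 1 to 2 on leaving out a litter. Leaving out a litter gave 4 to 20 member probesets at an unadjusted p under 0.05, and 2 to 9 against their gene. Without the litter block, 5 member probesets stood against their gene at that level in place of 3, Glra3 had an unadjusted p of 0.00213, and all genes at that level numbered 1017. Of the list genes, Suox, Hoxa5 and Hoxc5 left that level and Slc12a2 reached it, and no member gene crossed it. The cause of these changes was not tested.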
